A study of Mus musculus with 36 samples.

Results

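The fear response of the medial entorhinal cortex (MEC) was set against that of the lateral entorhinal cortex (LEC) in mice. The quantity compared was the change from home cage to fear in MEC minus the same change in LEC, on the log2 scale, computed from the read counts of the whole series. It used 12 of the 36 libraries, 3 in each of 4 groups, and 16720 of the 37315 genes in the table had enough counts to be tested. A positive value means that a gene moved further up, or less far down, in MEC than in LEC, and it is called the difference in response below.

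All mice were wild type on a BL/6 background, were housed singly and were handled for 3 minutes on each of 5 days. The home cage group is the control, and the group labelled fear is listed as foot shock in the design of the series, which also holds a context group exposed without shock and the hippocampal fields CA1 and CA3. Tissue was dissected 90 minutes after the behaviour, and polyA RNA was sequenced with a stranded kit. The labels used here name neither age nor sex, nor which libraries came from 1 animal or were pooled, so the p-values below measure the spread between libraries.

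The MEC and LEC are the 2 divisions of the entorhinal cortex and send the main cortical input to the dentate gyrus and the other hippocampal fields through the perforant path. The medial division is known for grid cells and other spatial codes, the lateral division for objects and events within a place. Neurons that have been active transcribe immediate early genes such as Fos, Egr1 and Arc within minutes and, after these, slower effectors such as Bdnf and Nptx2; stress hormone acts in parallel through the glucocorticoid receptor on genes such as Sgk1 and Fkbp5.

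Each of the 12 libraries held 21871412 to 68974340 counted reads (median 28327420); MEC home cage 3 was the deepest and the next was at 31161363. On the first principal component, which held 29.3% of the variance, the 6 LEC libraries lay between -61.4 and -8.7 and the 6 MEC libraries between 7.4 and 49.7. The 3 LEC home cage libraries were far apart on the second component, at -45, -42.6 and 44.3, and LEC home cage 3 received the lowest quality weight of the 12 (0.205). Cortical excitatory markers summed to between 1360 and 1930 CPM (the counts-per-million scale, which divides by the library total) and markers of CA1 and subiculum to between 310 and 831 CPM in these libraries, levels that were not compared with those of the CA1 and CA3 libraries. Cbln4, the ligand gene in the title of the series, differed between the regions in home cage, at 90.9 CPM in MEC and 10.4 in LEC.

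In MEC, 9 of 20 genes of fast-firing neurons, 4 of 24 activity-regulated genes of the rapid list, 3 of 30 of the delayed list and 3 of 21 glucocorticoid-responsive genes rose after fear, beside 0.359% of all genes. The lists were chosen with earlier results of these data known, so these shares are a description and no independent support. With oligodendrocyte markers as a covariate no gene was called in MEC. The summed level of these markers was 1720 to 2490 CPM in MEC home cage and 2550 to 3540 CPM in MEC fear. That fit can therefore tell marker level and fear apart only in part. In LEC no gene was called, and the median change was 0.03 for the fast-firing list and 0.26, 0.23 and 0.39 for the other lists in that order. The genes that led the difference in response were Scn4b, Vamp1 and Nefh on the MEC side and Usp43 on the LEC side. In the fit of the 12 libraries no gene passed an adjusted p under 0.05 for the difference itself (edgeR's quasi-likelihood test with Benjamini-Hochberg adjustment, 0% of 16720 genes). At an unadjusted p under 0.05 there were 936 genes, 5.6% of those tested, 391 of them with a positive (2.34%) and 545 with a negative value (3.26%). The smallest adjusted p was 0.165, for Vamp1 and Scn4b, followed by 0.4 for Nefh and 0.429 for Usp43.

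Other models called a few of the same leading genes. DESeq2 called 7 genes: Vamp1 (adjusted p = 6.44e-06), Scn4b (8.73e-06), Usp43 (0.000758), Nefh (0.00091), Egfem1 (0.0243), Col23a1 (0.0391) and Catsperg1 (0.0408). With edgeR on the 18 entorhinal libraries, context groups included, Vamp1, Scn4b and Nefh were called (adjusted p = 0.0148, 0.041 and 0.0497), and on all 36 libraries the same 3 genes were called (0.00128, 0.00571 and 0.00571). limma voom with quality weights called Vamp1 (adjusted p = 0.0383), and without MEC fear 1 or LEC home cage 1 edgeR called 4 (Pappa2, Vamp1, Chst9 and Scn4b) and 1 (Scn4b). Over the genes tested the median difference in response was 0.00 with a median standard error (SE) of 0.30, which sets the size of difference that 3 libraries a group could resolve.

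**Figure D1:**
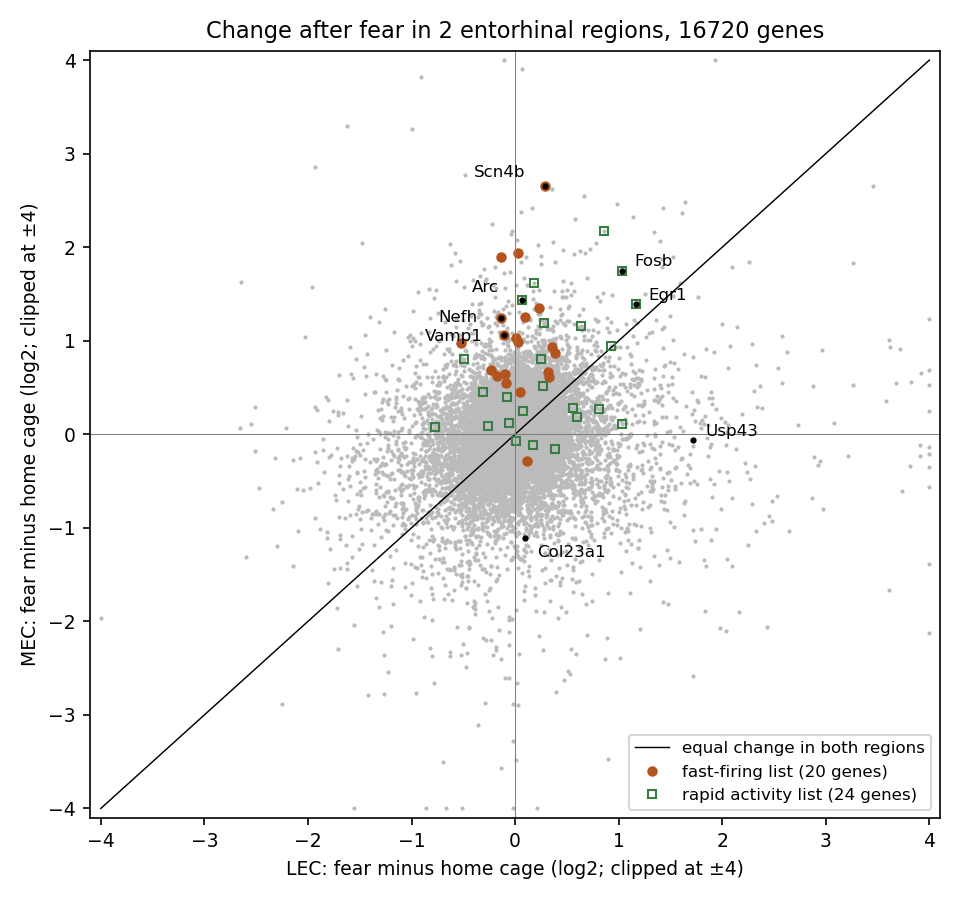
Log2 change from home cage to fear in LEC (x axis) and MEC (y axis) for 16720 genes (grey points), with the line of equal change, the 20 fast-firing genes (filled circles) and the 24 rapid activity-regulated genes (open squares). Scn4b, Vamp1 and Nefh lie high above the line near 0 on the LEC axis, Egr1 lies near the line, and Usp43 lies far to the right at 0 on the MEC axis.

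Scn4b (ENSMUSG00000046480, chromosome 9, 45138395 to 45154152, plus strand, GRCm38) encodes the beta-4 subunit of voltage-gated sodium channels, which supports resurgent current and rapid repetitive firing. Its level in MEC was 6.45, 8.13 and 7.44 CPM in the home cage libraries and 31.8, 47.7 and 55.2 CPM in the fear libraries. In LEC it was 3.27, 7.5 and 4.77 CPM in home cage and 7.05, 5.4 and 6.67 CPM after fear. Every MEC fear library stood above every other library of the 4 groups, and the LEC groups overlapped. Over all genes, fear lay wholly above home cage for 11.8% and wholly below for 19.2% in MEC, and for 6.9% and 4.22% in LEC. Scn4b rose in MEC by 2.66 ± 0.27 (log2, SE; adjusted p = 0.00198, edgeR) and had a log2 change of 0.28 ± 0.27 in LEC (adjusted p = 0.807). The difference in response was 2.37 ± 0.38 with a 95% interval of 1.57 to 3.18, and it lay between 2.04 and 2.64 when any single library was left out.

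Vamp1 (ENSMUSG00000030337, chromosome 6, 125215551 to 125245964, plus strand) encodes synaptobrevin 1, a vesicle SNARE protein of fast synapses. The MEC home cage libraries held 71.6, 74.4 and 71.9 CPM and the MEC fear libraries 123, 153 and 165 CPM, against 68.3, 60.9 and 55.4 CPM in LEC home cage and 56.8, 57.1 and 60.3 CPM in LEC fear. The regions differed by 0.15 on the log2 scale in home cage, and the MEC fear libraries stood above the other 9. It rose in MEC by 1.06 ± 0.12 (log2, SE; adjusted p = 0.00374, edgeR), had a change of -0.11 ± 0.12 in LEC, and gave a difference in response of 1.17 ± 0.18 (95% interval 0.80 to 1.55; 1.09 to 1.29 without any single library).

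Nefh (ENSMUSG00000020396, chromosome 11, 4938754 to 4948064, minus strand) encodes the heavy neurofilament chain of large myelinated axons. Its MEC level was 30.7, 31.5 and 38.2 CPM in home cage and 61.1, 78 and 91.1 CPM after fear, and its LEC level 35.4, 26.6 and 23.5 CPM and then 24.9, 25.6 and 28.5 CPM. MEC fear again lay above all other libraries of the 4 groups, with the LEC groups overlapping, but MEC context 3 (63 CPM) exceeded MEC fear 1. The rise in MEC was 1.24 ± 0.18 (log2, SE; adjusted p = 0.0101, edgeR), the change in LEC -0.14 ± 0.18, and the difference in response 1.38 ± 0.25 (95% interval 0.85 to 1.91).

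The promoters of Scn4b and Vamp1 are shown because these genes had the smallest p of the comparison, with those of Syt2, a further fast-firing gene that rose in MEC, and Col23a1, a gene that fell there. Each window runs 5′ to 3′ from 250 bases before to 50 bases after a RefSeq start site (GRCm38.p6); capitals mark a match to any of 5 motifs that were searched on both strands.
Scn4b, chr9:45138374-45138673, plus strand: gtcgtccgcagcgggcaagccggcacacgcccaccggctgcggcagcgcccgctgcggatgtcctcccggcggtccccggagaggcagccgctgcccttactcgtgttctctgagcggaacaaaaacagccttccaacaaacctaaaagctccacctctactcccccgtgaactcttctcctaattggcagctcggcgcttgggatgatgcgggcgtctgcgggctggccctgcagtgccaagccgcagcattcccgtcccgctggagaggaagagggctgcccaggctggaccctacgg
Vamp1, chr6:125215331-125215630, plus strand: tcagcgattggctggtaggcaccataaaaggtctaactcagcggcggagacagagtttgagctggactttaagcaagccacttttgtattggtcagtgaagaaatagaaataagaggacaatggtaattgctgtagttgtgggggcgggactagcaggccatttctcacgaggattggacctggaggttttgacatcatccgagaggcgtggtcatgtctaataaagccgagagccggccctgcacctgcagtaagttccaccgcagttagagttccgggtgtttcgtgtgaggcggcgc
Syt2, chr1:134646362-134646661, plus strand: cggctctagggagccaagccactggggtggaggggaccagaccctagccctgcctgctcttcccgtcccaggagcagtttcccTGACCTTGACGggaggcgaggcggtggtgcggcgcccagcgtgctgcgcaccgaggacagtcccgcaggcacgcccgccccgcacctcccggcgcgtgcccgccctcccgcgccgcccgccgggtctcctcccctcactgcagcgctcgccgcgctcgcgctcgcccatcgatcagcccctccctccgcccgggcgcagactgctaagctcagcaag
Col23a1, chr11:51289670-51289969, plus strand: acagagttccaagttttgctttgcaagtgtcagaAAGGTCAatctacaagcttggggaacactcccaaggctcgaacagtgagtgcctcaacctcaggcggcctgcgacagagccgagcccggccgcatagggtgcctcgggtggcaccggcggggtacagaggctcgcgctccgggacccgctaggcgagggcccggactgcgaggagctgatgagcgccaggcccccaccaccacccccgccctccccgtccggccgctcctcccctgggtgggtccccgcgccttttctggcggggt
The motifs, chosen after the values were seen, were the oestrogen-related receptor half-site AAGGTCA, found in 4.72% of all 32817 windows of this length, the cAMP response element half-site TGACG (20.8%), the AP-1 site TGANTCA (7.81%), the Egr site GCGNGGGCG (5.56%) and the E-box CACGTG (7.15%). The Scn4b and Vamp1 windows held none of these letter strings. The Syt2 window held the receptor half-site on the minus strand, 167 bases before the start, overlapping TGACG by 1 letter, the T at 161 bases before the start, and the Col23a1 window held AAGGTCA 216 bases before the start. A second Syt2 start site, 134709050 to 134709349 on chromosome 1, held TGACTCA, an AP-1 match. These are matches of letters only. Of the 9 genes with a window, only Syt2 and Col23a1, both printed above, held the receptor half-site. Slc24a2, Egfem1, Catsperg1, Stpg1, Kcng4, Scn4b and Vamp1 did not. The half-site TGACG was also in a window of Egfem1, 197 bases before the start. Its reverse complement CGTCA was in a window of Slc24a2, 83 bases before the start.

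Next on the MEC side by p were Bcas1 and Slc24a2. Bcas1, a gene of myelinating oligodendrocytes, was at 61.5, 43.9 and 41.8 CPM in MEC home cage and 62.2, 79.6 and 76.4 CPM in MEC fear, against 46.7, 51.6 and 46 CPM in LEC home cage and 35.9, 40.2 and 34.5 CPM in LEC fear. Its fear libraries were thus above home cage in MEC and below it in LEC, without a call in either region, and the difference in response was 1.02 (95% interval 0.55 to 1.50). Slc24a2, a potassium-dependent sodium-calcium exchanger of neurons, was at 413, 418 and 397 CPM in MEC home cage and 853, 846 and 1000 CPM in MEC fear, against 342, 286 and 327 CPM in LEC home cage and 393, 322 and 466 CPM in LEC fear. It rose in MEC by 1.18 ± 0.15 (log2, SE; adjusted p = 0.00468, edgeR), and its LEC groups overlapped at a change of 0.28, which left a difference of 0.90 (0.46 to 1.34). The remaining genes among the first 15 with a positive value had differences of 0.84 to 1.39, none past the adjusted threshold. They were Gatad2a, a subunit of the NuRD complex, Rph3a, which encodes the vesicle protein rabphilin, the phosphodiesterase gene Pde8a, Plekhh1, the corepressor gene Hr, the lipoxygenase gene Alox8, the sulfatase gene Arsg, Hapln4, a link protein of perineuronal nets, Klhdc7a and the early response gene Ier5.

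Usp43 (ENSMUSG00000020905, chromosome 11, 67854523 to 67922153, minus strand), a ubiquitin-specific protease gene, led the negative side. It was at 8.6, 7.58 and 11 CPM in MEC home cage and 8.42, 7.84 and 9.09 CPM in MEC fear, against 1.71, 1.6 and 0.946 CPM in LEC home cage and 4.08, 5.43 and 4.75 CPM in LEC fear. The 2 MEC groups overlapped, every LEC fear library stood above every LEC home cage library, and all LEC libraries stayed below the MEC range. The change was 1.71 ± 0.25 in LEC (log2, SE; adjusted p = 0.122, edgeR) and -0.06 ± 0.22 in MEC, with a difference in response of -1.78 ± 0.33 (95% interval -2.49 to -1.06). In home cage it was higher in MEC than in LEC by 2.59 (adjusted p = 0.00024, edgeR; a call made for 2.92% of all genes in either direction), so the fear groups were closer together than the controls.

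Col23a1 (ENSMUSG00000063564, chromosome 11, 51289920 to 51583918, plus strand), a transmembrane collagen gene, showed the opposite arrangement, a fall in MEC. It was at 59, 74.2 and 65.8 CPM in MEC home cage and 36.9, 23.1 and 29.2 CPM in MEC fear, against 46.1, 43.2 and 45.9 CPM and then 51, 60.4 and 36.3 CPM in LEC. The MEC fear libraries were the lowest but for LEC fear 3, which at 36.3 CPM fell within their range. The fall in MEC was -1.11 ± 0.18 (log2, SE; adjusted p = 0.0188, edgeR) against 0.09 ± 0.18 in LEC, and the difference was -1.20 ± 0.25.

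The other 3 of the first 5 negative genes had MEC fear below and LEC fear at or above home cage. Egfem1, which encodes a protein with EGF-like repeats, was at 14.9, 16.1 and 13.9 CPM and after fear 9.83, 7.02 and 7.51 CPM in MEC, and at 6.65, 8.73 and 5.96 CPM and then 9.16, 12.6 and 8.5 CPM in LEC, where the groups overlapped. Catsperg1, an auxiliary subunit gene of the CatSper calcium channel known from sperm, was at 3.35, 6.03 and 3.71 CPM and then 1.65, 1.57 and 1.75 CPM in MEC, and at 0.925, 2.29 and 1.56 CPM and then 2.44, 3.79 and 2.31 CPM in LEC. Stpg1 was at 14.5, 17.3 and 22.3 CPM and then 12.7, 7.23 and 11 CPM in MEC, and at 6.61, 9.28 and 4.77 CPM and then 10.8, 21.7 and 11.2 CPM in LEC. In all of these the mean level was higher in MEC than in LEC in home cage and lower in MEC than in LEC after fear, and the differences in response were -1.31, -2.16 and -1.82. The remaining 10 genes, Rsph10b, Rreb1, the complement gene Hc, the cadherin gene Cdh18, the synaptic vesicle gene Synpr, the transcription factor gene Tbx15, Cdkl1, Cfap65, the phospholipase gene Pla2g4e and Setd4, had differences of -3.21 to -0.79.

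**Figure D2:**
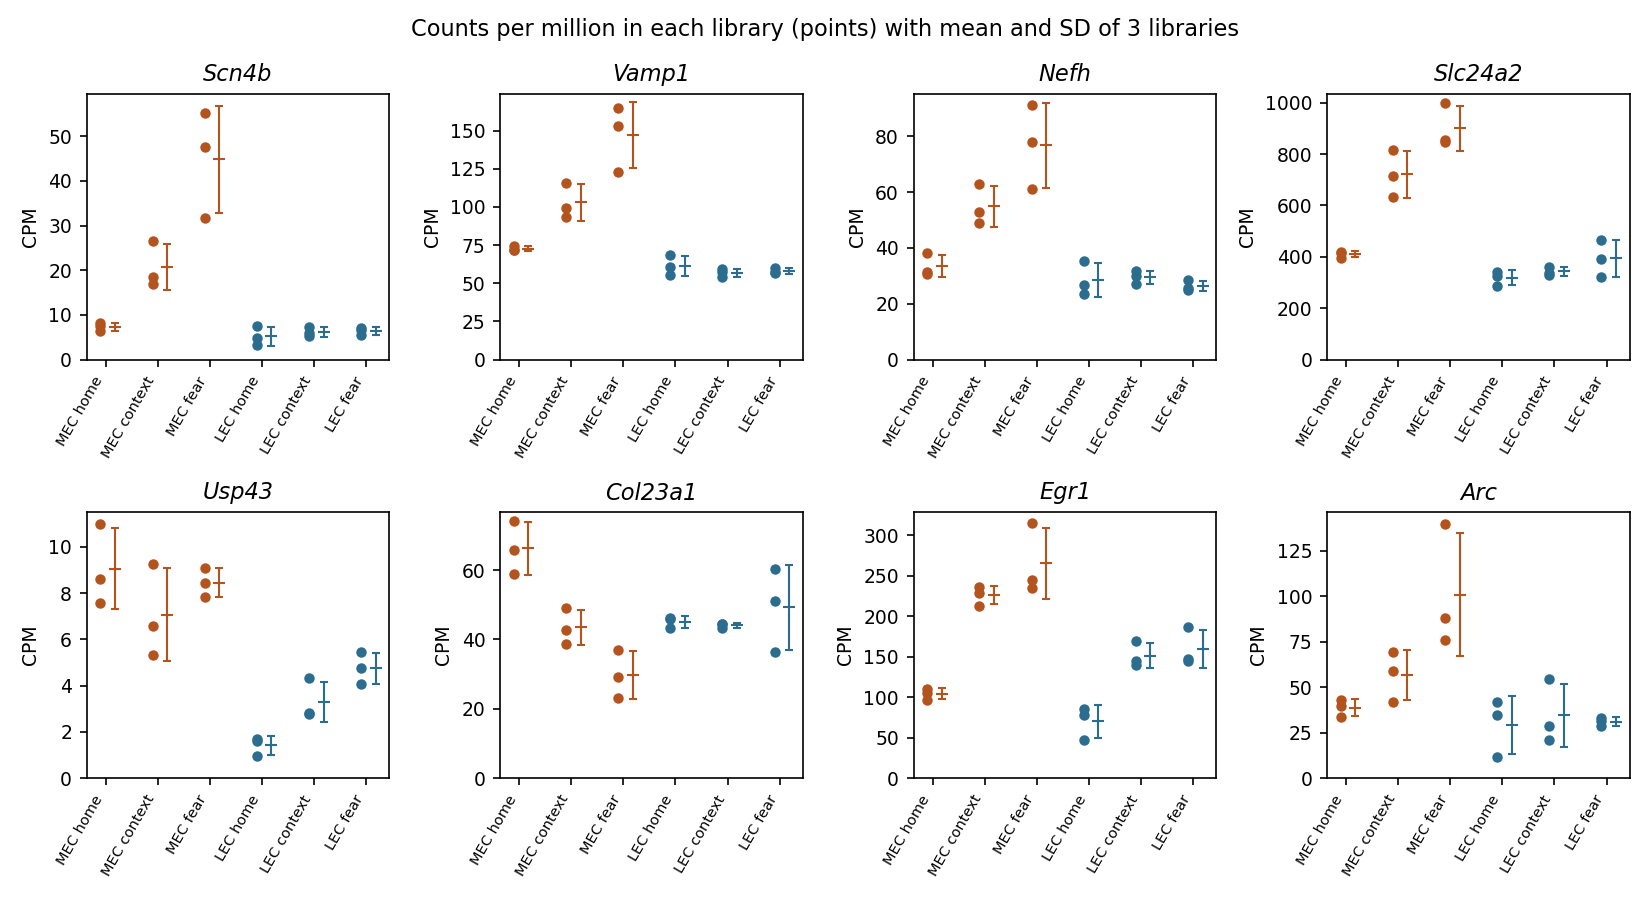
CPM (y axis, from 0) of 8 genes in the home cage, context and fear libraries of MEC and LEC (x axis); points are libraries, the bars beside them the mean and SD of 3 libraries. For Scn4b and Vamp1 the MEC fear libraries lie above all others drawn, with MEC context between home cage and fear. For Nefh the MEC fear libraries lie above all home cage and LEC libraries, but MEC context 3 (63 CPM) exceeds MEC fear 1 (61.1 CPM). For Usp43 the LEC fear libraries lie above LEC home cage and below all MEC home cage and fear libraries. For Egr1 both regions are higher after fear.

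The list of fast-firing genes held 20 members, all tested. It names sodium, potassium, vesicle, neurofilament and perineuronal net genes that are enriched in neurons able to fire at high rates, and since several members were known from earlier results of these data it is a description and no independent support. The median difference in response over the list was 0.94 against 0.00 over all genes. A positive value was found in 19 of 20 and a positive value at an unadjusted p under 0.05 in 16 of 20, beside 2.34% of all genes; none passed the adjusted threshold. The median change was 0.96 in MEC, where 9 of 20 rose at an adjusted p under 0.05 (0.359% of all genes). It was 0.03 in LEC, where none did and 4 had a positive change at an unadjusted p under 0.05, beside 4.84% of all genes.

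Among the ion channels, Kcng4, a modifying subunit of Kv2 potassium channels, was at 1.09, 1.52 and 1.58 CPM in MEC home cage, 2.74, 6.41 and 6 CPM in MEC fear, and between 1.04 and 2.6 CPM in the 6 LEC libraries. Its MEC change of 1.89 did not pass (adjusted p = 0.0523, edgeR), and the difference in response was 2.03 (95% interval 0.83 to 3.23), or 0.77 with oligodendrocyte markers as a covariate. The Kv1 genes Kcna1 and Kcna2, which encode axonal delayed rectifiers, rose in MEC by 0.87 and 0.93 and had values of 0.38 and 0.36 in LEC, where fear lay above home cage too, with differences of 0.48 and 0.58. Kcnc1, a Kv3 channel gene, rose in MEC by 0.66 against 0.31 in LEC. Kcnc2 was the exception of the list at -0.28 in MEC and 0.11 in LEC.

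Among the synaptic and structural members, Syt2, the fast calcium sensor of vesicle release, was at 19.6, 20.4 and 22.5 CPM in MEC home cage and 70, 70.1 and 92.8 CPM in MEC fear, against 11.8, 3.11 and 3.33 CPM and then 5.68, 5.5 and 7.8 CPM in LEC. It rose in MEC by 1.94 ± 0.36 (log2, SE; adjusted p = 0.0334, edgeR) and had a value of 0.03 in LEC, where home cage 1 exceeded every fear library; the difference was 1.92 (0.79 to 3.04). Nefm, the medium neurofilament chain, and Hapln4 rose in MEC by 1.25 and 1.03 with values of 0.09 and 0.01 in LEC. Pvalb, the calcium buffer parvalbumin, was at 27.3, 14 and 17.8 CPM in MEC home cage and 27.7, 42.7 and 43 CPM after fear, and at 17.5, 9.05 and 6.42 CPM and then 6.92, 9.67 and 6.8 CPM in LEC. Its lowest MEC fear library, at 27.7, barely exceeded its highest home cage library, and neither region was called. As a description of the other regions, the median change of the list was 0.43 in CA1 and 0.33 in CA3.

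**Figure D3:**
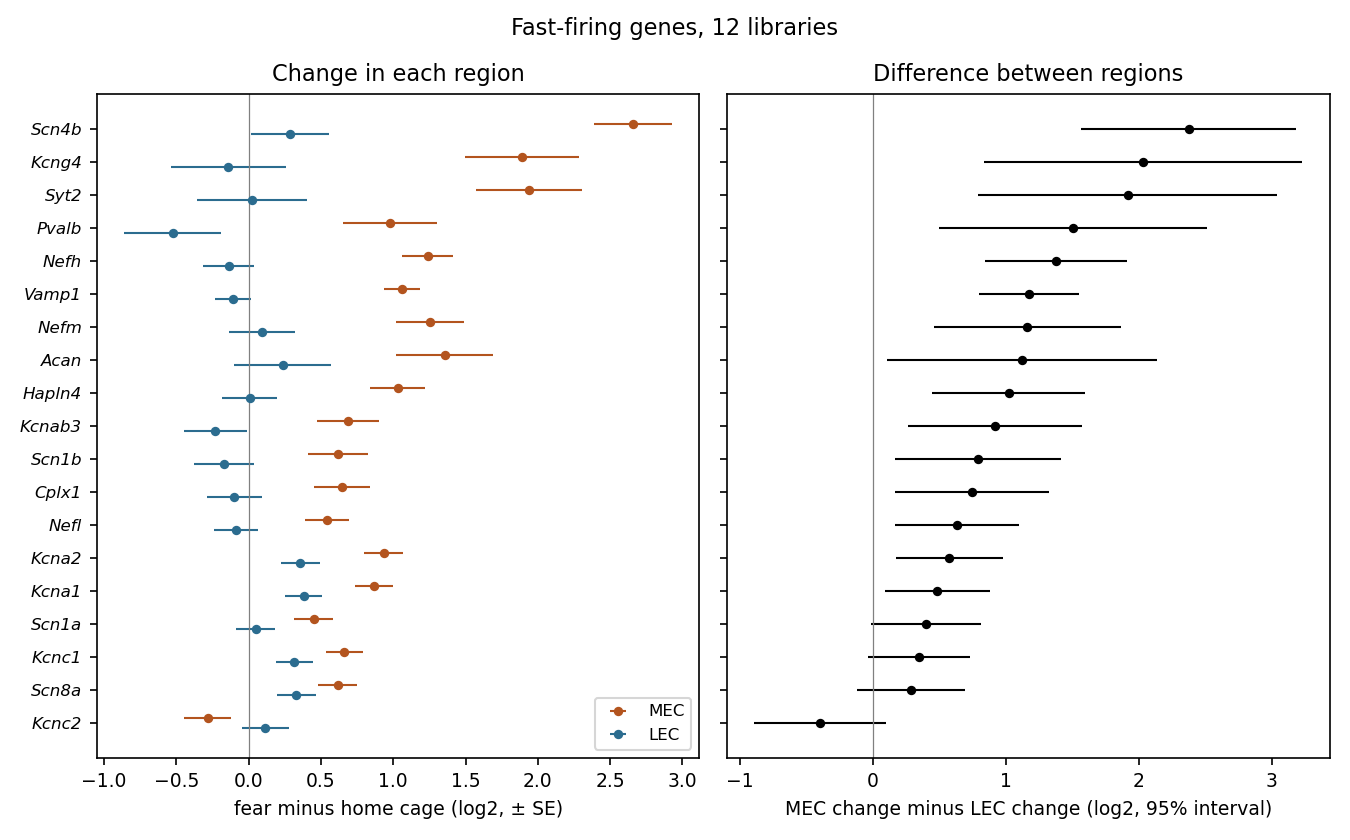
Left, log2 change from home cage to fear (x axis, points with SE) in MEC and LEC for 19 of the 20 fast-firing genes (rows); right, the MEC change minus the LEC change with its 95% interval. MEC exceeds LEC in 18 of the 19 genes drawn, and the largest differences are those of Scn4b, Kcng4 and Syt2.

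Markers of oligodendrocytes moved with these genes. All 10 markers had a positive difference in response, beside 8419 of all 16720 genes, with a median of 0.87. Of the 10 markers, 9 had a positive value at an unadjusted edgeR p under 0.05, beside 2.34% of all genes. Their summed level was 1720 to 2490 CPM in MEC home cage and 2550 to 3540 CPM in MEC fear, against 1210 to 1840 CPM in LEC home cage and 1230 to 1420 CPM in LEC fear. The MEC ranges did not overlap, and the LEC fear range lay inside that of home cage. The gap between the MEC ranges was narrow, from 2490 CPM in home cage 1 to 2550 CPM in fear 1. Since marker level and fear moved together in MEC, a model that holds both can tell them apart only in part. With the level of these markers as a covariate, the difference in response (log2, SE) was 0.82 ± 0.254 for Vamp1, 2.52 ± 0.63 for Scn4b and 0.93 ± 0.385 for Nefh. Without the covariate these SE were 0.18, 0.38 and 0.25. With it the difference in response was 0.43 for Bcas1, 0.73 for Slc24a2, -1.95 for Usp43 and -0.75 for Col23a1. Of the other genes named here it was 0.91 for Alox8, 0.58 for Pde8a, 0.48 for Plekhh1, -0.49 for Cfap65 and 0.87 for Kcna2. It was 0.45 for Bdnf, 0.43 for Bhlhe40, 0.31 for Dusp6, 0.20 for Hlf, 0.49 for Cacna2d3, -0.49 for Grik1, -0.28 for Grik2 and -0.72 for Trhr. In CA1 and CA3 the marker medians after fear were -0.61 and -0.28, while those of the fast-firing genes were positive. Interneuron markers summed to 801 to 869 CPM in MEC home cage and 993 to 1070 CPM in MEC fear, and to 793 to 985 and 813 to 953 CPM in LEC. Thalamus markers summed to 162 to 166 CPM in MEC home cage and 212 to 220 CPM in MEC fear, and to 111 to 145 and 130 to 144 CPM in LEC. In bulk tissue a change in the share of cells of a type and a change in RNA per cell cannot be told apart. The part of these cell type markers in the result was not tested beyond that covariate.

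**Figure D4:**
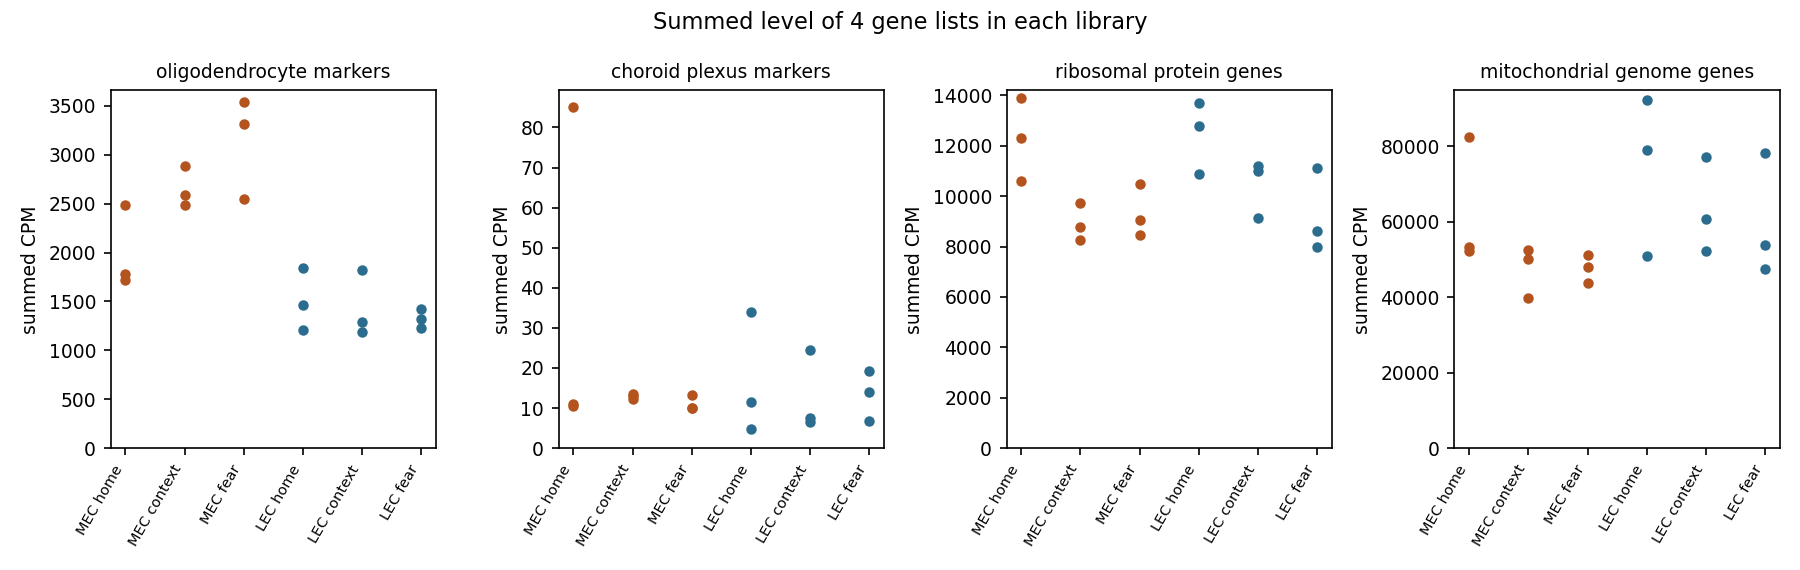
Summed CPM (y axis, from 0) of oligodendrocyte markers, choroid plexus markers, ribosomal protein genes and genes of the mitochondrial genome in each MEC and LEC library (points) by group (x axis). Oligodendrocyte markers are higher in MEC fear than in MEC home cage and not in LEC, and MEC home cage 2 alone holds 85.2 CPM of choroid plexus markers.

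The rapid activity-regulated genes are transcription factors and feedback genes induced directly by neuronal activity. Of 24 members tested, 4 rose in MEC (0.359% of all genes) and none was called in LEC. A positive change at an unadjusted p under 0.05 was found for 9 and 6 in MEC and LEC (7.97% and 4.84% of all genes). The median change was 0.43 in MEC and 0.26 in LEC. The difference in response was positive in 17 of 24 with a median of 0.30, and 4 of 24 had a positive value at an unadjusted p under 0.05 beside the 2.34% of all genes.

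Egr1, a zinc finger transcription factor gene, was at 110, 97 and 105 CPM in MEC home cage and 245, 315 and 234 CPM in MEC fear, and at 84.9, 78 and 46.9 CPM and then 187, 144 and 147 CPM in LEC. Fear lay above home cage in both regions with no overlap. It rose in MEC by 1.39 ± 0.19 (log2, SE; adjusted p = 0.0101, edgeR), the LEC change was 1.17 ± 0.19 (adjusted p = 0.182), and the difference of 0.23 had a 95% interval of -0.35 to 0.81. Fosb, an AP-1 subunit gene, rose in MEC by 1.75 against 1.03 in LEC, with fear above home cage in both (difference 0.72, interval -0.07 to 1.50).

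Arc, a synaptic effector that trims AMPA receptors, was at 42.8, 33.5 and 39.8 CPM in MEC home cage and 75.9, 140 and 88.3 CPM in MEC fear, and at 41.9, 34.7 and 11.4 CPM and then 33.2, 28.4 and 31.5 CPM in LEC. The MEC groups were apart, and the LEC home cage libraries spread on both sides of the LEC fear libraries. The MEC change was 1.43 (adjusted p = 0.0892, edgeR), the LEC change 0.06 and the difference 1.37 (0.34 to 2.40); it was 1.74 without LEC home cage 3, the library at 11.4 CPM, and 0.21 with the oligodendrocyte covariate. Egr3 had 1.61 in MEC and 0.18 in LEC. Ier5 and Dusp6, a feedback phosphatase of ERK kinases, rose in MEC by 1.19 and 0.80 against 0.28 and 0.25. On the other side, Nr4a3 and Fosl1 had 0.28 and 0.18 in MEC and 0.56 and 0.60 in LEC.

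**Figure D5:**
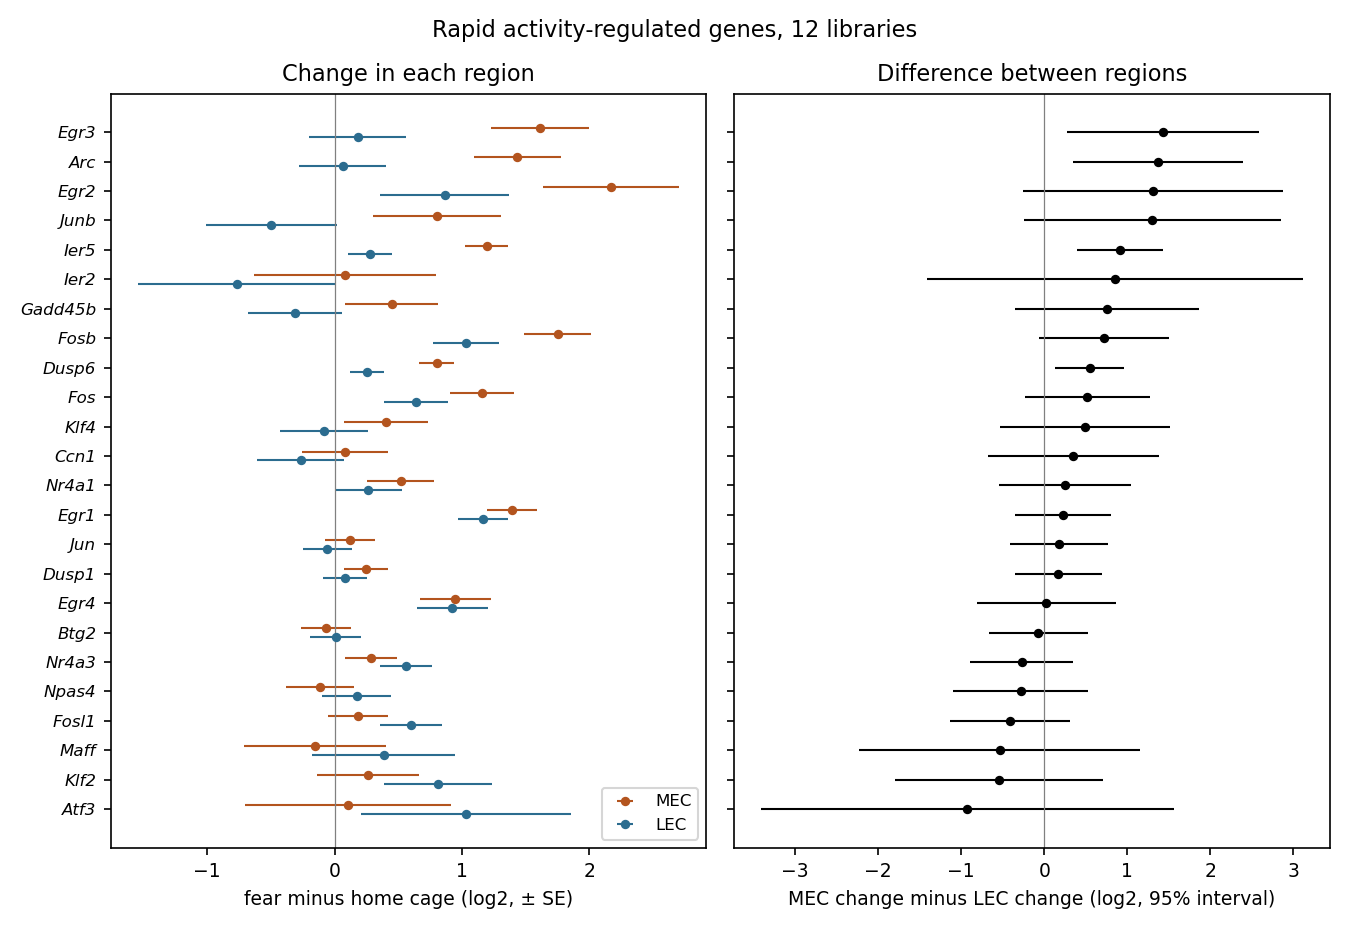
Left, log2 change from home cage to fear (x axis, points with SE) in MEC and LEC for the 24 rapid activity-regulated genes (rows); right, the MEC change minus the LEC change with its 95% interval. Egr3, Arc, Ier5 and Dusp6 have intervals above 0, Egr1 is high in both regions, and the intervals of 20 genes include 0.

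Of 30 delayed activity-regulated genes, 3 rose in MEC (Bdnf, Homer1 and Dusp4), beside 0.359% of all genes, and none was called in LEC, with medians of 0.59 and 0.23. The difference in response had a median of 0.31, was positive in 20 of 30 and had a positive value at an unadjusted p under 0.05 in 5, beside 2.34% of all genes. Nptx2, a secreted pentraxin that clusters AMPA receptors, was at 4.88, 5.65 and 9.13 CPM in MEC home cage and 14.2, 36.6 and 18.3 CPM in MEC fear, and at 22.2, 36.8 and 23.4 CPM and then 33, 16.6 and 37.1 CPM in LEC. Ptgs2, the inducible cyclooxygenase, was at 2.48, 2 and 2.03 CPM and then 4.54, 18 and 5.77 CPM in MEC, and at 10.8, 23.3 and 17.2 CPM and then 21.7, 9.11 and 20 CPM in LEC. For both genes the LEC groups overlapped at a level that the MEC libraries were below in home cage and had neared after fear. The home cage level was lower in MEC by -2.13 (Nptx2, adjusted p = 0.012, edgeR) and -3.07 (Ptgs2, adjusted p = 0.00718), and the differences in response were 1.78 (0.64 to 2.92) and 2.21 (0.77 to 3.64). MEC fear 2 was the highest library of both genes in its group; without it the differences were 1.28 and 1.33.

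Bdnf, the neurotrophin gene, was at 22.8, 20.6 and 19.9 CPM in MEC home cage and 33.6, 49 and 38 CPM in MEC fear, against 19.9, 23.4 and 24.6 CPM and 29.3, 23.1 and 30.5 CPM in LEC. It rose in MEC by 0.98 and had a value of 0.27 in LEC, where 1 fear library fell among the controls (difference 0.71, interval 0.18 to 1.24). Homer1, a postsynaptic scaffold gene, rose in MEC by 1.03 against 0.58 in LEC with no overlap of groups in either region, and Dusp4 by 1.21 against 0.80.

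Glucocorticoid-responsive genes had positive medians in both regions. Of 21 members tested 3 rose in MEC (Sgk1, Klf9 and Cdkn1a), beside 0.359% of all genes, and none was called in LEC. A positive change at an unadjusted edgeR p under 0.05 was found for 10 in MEC and 7 in LEC, beside 7.97% and 4.84% of all genes. The medians were 0.50 in MEC and 0.39 in LEC. The median difference was 0.30, with 2 of 21 at a positive value and an unadjusted p under 0.05, beside 2.34% of all genes. Hif3a was at 11.2, 8.16 and 6.35 CPM in MEC home cage and 22.3, 20 and 16 CPM in MEC fear, and at 8.75, 7.68 and 9.13 CPM and then 23.4, 22.3 and 12.6 CPM in LEC. Plin4, a lipid droplet protein gene, had changes of 1.48 in MEC and 1.52 in LEC. For both, fear lay above home cage in each region, and the differences were 0.08 (-0.67 to 0.83) and -0.04 (-1.02 to 0.94). Neither gene was called in either region, and the intervals are wide enough to hold differences of either sign.

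Sgk1, the serum and glucocorticoid regulated kinase, rose in MEC by 1.27 ± 0.16 (log2, SE; adjusted p = 0.00468, edgeR) from 26.4, 28.4 and 27 to 55.8, 79.9 and 55.6 CPM. In LEC it went from 32.6, 32.3 and 24.8 to 47.3, 52.4 and 40.9 CPM, a change of 0.62 that did not pass, although fear lay above home cage. The difference was 0.65 (0.18 to 1.13), or 0.36 with the oligodendrocyte covariate. Klf9, a transcription factor gene, rose in MEC by 0.70 against 0.15 in LEC (difference 0.55, interval 0.15 to 0.94). Among 19 clock genes, Bhlhe40, a repressor of the clock, rose in MEC by 1.17 against 0.31 in LEC. The median difference of that list was 0.12, and 3 of 19, Bhlhe40, Cry1 and Hlf, had a positive value at an unadjusted p under 0.05, beside 2.34% of all genes.

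Among neuropeptide genes, 2 fell in MEC, Penk and Tac1, beside 0.0598% of all genes, and none was called in LEC. Penk, the enkephalin precursor, was at 21.7, 43.5 and 32.7 CPM in MEC home cage and 16.8, 8.73 and 8.1 CPM in MEC fear, and at 106, 100 and 92.6 CPM and then 96.3, 91.5 and 70.9 CPM in LEC. It fell in MEC (-1.49 ± 0.26, log2, SE; adjusted p = 0.0303, edgeR) and had -0.24 in LEC, a difference of -1.25 (-2.03 to -0.47) that was -0.16 with the oligodendrocyte covariate. Tac1, the substance P precursor, fell in MEC by 1.01 on the log2 scale against -0.32 in LEC. Nts, neurotensin, was at 7.33, 16.8 and 11.4 CPM and then 4.66, 0.997 and 1.32 CPM in MEC, and at 12.1, 6.54 and 6.13 CPM and then 5.92, 10.6 and 5.81 CPM in LEC; neither region was called, and the difference was -2.12, or -0.96 with the same covariate. Of 23 neuropeptide genes tested, 3 had a negative and 2 (Npy and Cck) a positive difference at an unadjusted p under 0.05, and 18 were positive, with a median of 0.40; over all genes those shares were 3.26% and 2.34%. Among 32 neuropeptide receptors 5 were negative and 2 positive at that level, beside the same shares of all genes, with a median of 0.01. Trhr, the thyrotropin-releasing hormone receptor, fell in MEC from 22.1, 25.7 and 20.8 to 9.4, 5.73 and 6.52 CPM, and was at 40, 42.8 and 58.3 and then 25.6, 22.9 and 51.2 CPM in LEC, where the groups overlapped; its difference was -1.09, or -0.61 without LEC fear 3.

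Wider channel and receptor lists had medians nearer to that of all genes. Of 50 potassium channel genes 36 had a positive difference in response, beside 8419 of all 16720 genes, with a median of 0.17. At an unadjusted edgeR p under 0.05 there were 6 positive genes and 1 negative gene, beside 2.34% and 3.26% of all genes. Of 33 sodium, calcium and HCN channel genes the median was 0.21, with 5 positive and 2 negative at that level, beside the same shares of all genes. Cacng2, the stargazin gene, and Cacna2d3 rose in MEC by 0.74 and 0.98 and had 0.04 and 0.12 in LEC. Glutamate receptors had a median of -0.07 with 3 of 22 negative at an unadjusted p under 0.05 (Grik1, Grik2 and Grm8), beside 3.26% of all genes. Of 15 GABA receptors none had such a p. Of 39 other synaptic adhesion genes 1 was positive (Cadm2, 0.58, or 0.34 without LEC home cage 3) and 1 negative (Lrrtm2), which is a share near that of all genes. Among 20 heat shock genes none had such a p.

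The series is about Cerebellin 4 and its receptor neogenin 1, which act across the synapses that entorhinal axons form in the dentate gyrus. Cbln4 was at 87.4, 83.6 and 102 CPM in MEC home cage and 102, 78.9 and 116 CPM in MEC fear, and at 11, 7 and 13.1 CPM and then 12.3, 28.7 and 18 CPM in LEC. Both pairs of groups overlapped, and all LEC libraries stayed far below MEC. Its difference in response was -0.71 (95% interval -1.53 to 0.11; -0.37 without LEC fear 2, the library at 28.7 CPM, -0.96 without LEC fear 1, and -0.42 with limma voom). Neo1 was at 122, 150 and 132 CPM and then 162, 139 and 145 CPM in MEC, and at 138, 133 and 136 CPM and then 191, 162 and 175 CPM in LEC. The LEC fear libraries were above home cage and the MEC groups overlapped, with a difference of -0.16 (-0.50 to 0.18) that turned to 0.09 with the oligodendrocyte covariate and ranged down to -0.31 over the other alternatives. Of 23 genes of cerebellin, C1q-like, netrin, repulsive guidance and receptor families tested, 2 had a positive (Ntn4 and Rgma) and 1 a negative difference (Cbln3) at an unadjusted p under 0.05, beside 2.34% and 3.26% of all genes; the Rgma value of 0.79 was 0.44 without LEC home cage 1. The Cbln3 value of -2.09 rested on MEC home cage 2 at 4.31 CPM, against 0.206 to 0.899 CPM in the other 11 libraries, and was -0.94 without it; that library also held the choroid plexus markers.

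Seen from MEC, 70 genes were called after fear (0.419% of genes tested), 60 of them higher (0.359%) and 10 lower (0.0598%), while LEC had 0 calls in the same fit, with 2601 and 1584 genes at an unadjusted edgeR p under 0.05 (15.6% and 9.47%). Those of MEC were 7.97% higher and 7.59% lower, and those of LEC 4.84% and 4.63% of the genes tested. DESeq2 called 512 in MEC and 118 in LEC. The spread between libraries of a group differed by region. As a biological coefficient of variation it was 0.1537 in the 6 MEC libraries and 0.2426 in the 6 LEC libraries. The shared fit of 12 libraries took 0.2055, and its median SE was 0.21 in each region. The SE and the counts of calls of MEC and LEC are thus not on an equal footing. The change in LEC had the same sign for 66 of the 70 (94.3%, against 59.6% of all genes), and 33 of them had an unadjusted p under 0.05 in LEC in that direction and 0 in the other. In LEC the fear libraries lay above home cage for 30 of the 60 genes that rose in MEC, beside 6.9% of all genes, and below it for 4 of the 10 that fell, beside 4.22%. The median of these 60 was 0.99 in MEC and 0.33 in LEC; since they were chosen on the MEC values, that gap is a description and no test. Chosen the other way, the 70 genes of smallest p in LEC had a median size of 0.87 there and of 0.53 in MEC along the LEC sign, and 63 of them shared the sign. Of these 70 genes, 25 had no symbol, a Gm or Rik name or a pseudogene name.

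The MEC count moved with single libraries. It was 66 without LEC home cage 2, 77 without LEC fear 3 and 83 without MEC fear 1, but 3 without MEC home cage 2, 6 without MEC fear 2, 8 without MEC fear 3, 15 without MEC home cage 3, 21 without MEC home cage 1, 46 without LEC fear 1, 108 without LEC fear 2, 138 without LEC home cage 1 and 366 without LEC home cage 3. It was 385 with 18 libraries and 0 with the oligodendrocyte covariate, which that fit can tell apart from fear in MEC only in part. In LEC, 8 and 45 genes were called without home cage 1 and home cage 3.

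Of the 936 genes at an unadjusted p under 0.05 for the difference, 754 had opposite signs in MEC and LEC; selection on a difference favours opposite signs, and over all genes 59.6% had the same sign. MEC alone had a p under 0.05 within the region for 230 genes with a positive and 239 with a negative difference, LEC alone for 82 and 157, and both regions in opposite directions for 5 and 19.

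The response to context without shock was compared between the regions in the same way. It shares the home cage libraries with the fear comparison, so the values are set side by side only. The context difference in response was 1.29 ± 0.38 for Scn4b, 0.67 ± 0.16 for Vamp1, 0.72 ± 0.22 for Nefh, 0.77 ± 0.16 for Slc24a2, -1.53 ± 0.40 for Usp43, -0.52 ± 0.16 for Col23a1 and 0.37 ± 0.54 for Arc (log2, SE). It was 0.95 for Plekhh1 and 0.81 for Kcna2, for which the fear values were 0.84 and 0.58. MEC context libraries held 18.5, 17 and 26.6 CPM of Scn4b and 99, 93.2 and 116 CPM of Vamp1, all between the home cage and the fear libraries of MEC. The median for the fast-firing list was 0.56 after context. No gene passed for the context difference with edgeR, of 16695 tested (0%; 419 at an unadjusted p under 0.05, 2.51%), and DESeq2 called 1.

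Whether shock and context differed in this respect was asked with the fear minus context change in MEC minus that in LEC. It was 1.07 ± 0.31 for Scn4b, 0.50 ± 0.16 for Vamp1, 0.65 ± 0.19 for Nefh, 0.99 ± 0.44 for Arc, 0.12 ± 0.19 for Slc24a2 and -0.25 ± 0.31 for Usp43 (log2, SE). None of 16578 genes passed with edgeR (0%; smallest adjusted p 0.53; 1512 at an unadjusted p under 0.05, 9.12%), DESeq2 called 1 and limma voom 1393. In edgeR fits 1 gene was called without the filter on low counts and 3 without MEC fear 1.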

How the data were processed

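RNA-seq counts per gene were analysed for 12 libraries of MEC and LEC (fear and home cage), with the context groups and CA1 and CA3 for comparison. The table the authors deposited holds raw read counts, all whole numbers. The submitters' processing notes name Trimmomatic 0.33, STAR 2.7.10b, HTSeq 2.0.1 and the mm10 build. Which annotation was counted, and with what strand option, is not given in the sources used here; overlapping and antisense genes are therefore uncertain. Symbols and positions were taken from GENCODE M21 (GRCm38), which matched 95.0% of 37315 identifiers, and promoters from RefSeq, where 9 of 12 genes looked up had a window.

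edgeR's robust quasi-likelihood model was fitted to genes kept by filterByExpr, with TMM factors (1 mean per group, 8 residual degrees of freedom, biological coefficient of variation 0.2055). Calls required p under 0.05 after Benjamini-Hochberg adjustment over all genes. CPM of single libraries, and the shares of genes whose groups did not overlap, use library totals without TMM factors. Log2 CPM, used for the cut on named genes and for the principal components, use TMM-scaled totals. Named genes are, from those averaging 1 log2 CPM or more, the 15 of smallest p on each side, in each of 14 pathway lists up to 6 called members and the 3 of smallest p, and Cbln4 and Neo1; 1 member of the fast-firing list is not reported here by name, and other members named were chosen after their values were seen. The genes and lists were chosen with earlier results of these data known, and the motifs after the values were seen.

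Alternatives were RLE factors, no filter, DESeq2, limma voom with quality weights, replicate blocks, GC and length offsets (splines with 5 degrees of freedom), covariates for oligodendrocyte markers and for meninges, mural and choroid markers, 18 or 36 libraries, and leaving out each library. The procedure was tested on simulated data. Software was edgeR 4.0.16 with limma 3.58.1, then DESeq2 1.42.0, all under R 4.3.3; promoters and figures used pandas 2.3.3, matplotlib 3.10.9 and numpy 2.4.6 under Python 3.11.15.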

Additional observations from a re-analysis of the deposited data

How the results depend on the processing

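The count of 0 for the difference in response was the same with RLE factors, with both covariates, with either replicate block and with a block and GC and length offsets, was 3 without a filter, 7 with DESeq2, 1 with limma voom, 1 with GC and length offsets and 3 with 18 or 36 libraries, and ranged from 0 to 4 without single libraries (1 without LEC home cage 1 and 4 without MEC fear 1). The MEC count of 70 was 159 without a filter, 512 with DESeq2, 3619 with limma voom, 248 with GC and length offsets, 0 with the oligodendrocyte covariate, 781 with the other covariate, 385 and 239 with 18 and 36 libraries, and 3 to 366 without single libraries. The LEC count of 0 was 9, 118, 173 and 2 in the first 4 of these settings, 2 with 18 libraries and 0 to 45 without single libraries. The context count of 0 was 1 with DESeq2; the fear minus context count of 0 was 1 without a filter, 1 with DESeq2, 1393 with limma voom, and 0 to 3 without single libraries, 3 without MEC fear 1. The cause of these shifts was not tested.

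Same-numbered libraries did not consistently deviate together (10260 genes, correlations of -0.78 to 0.55 over all pairs of groups). Between LEC and MEC the correlations were 0.31, 0.03 and 0.13 in fear and -0.56, -0.19 and -0.78 in home cage. The labels give no basis for a pairing by number. Whether libraries of different numbers came from the same animal was not tested. The replicate block gave 22 MEC calls, the replicate block within condition 0, and the replicate block with GC and length offsets 133 in MEC and 2 in LEC; the block within condition gave 69 for fear minus context. Of 1656 values of 69 named genes under 24 alternatives, 3 changed sign, all with the oligodendrocyte covariate: Mt1 (-0.0726), Cryab (-0.37) and Neo1 (0.0852). The number of libraries, 3 a group, leaves a median SE of 0.30.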

Other observations

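Ribosomal protein genes had negative medians after fear in both regions. Of 79 ribosomal protein genes tested none was called, while 35 in MEC and 55 in LEC had a negative change at an unadjusted edgeR p under 0.05, beside 7.59% and 4.63% of all genes, with medians of -0.32 and -0.48. Their summed level was 10600 to 13900 CPM in MEC home cage and 8440 to 10500 CPM in MEC fear, and 10900 to 13700 and 8000 to 11100 CPM in LEC. The difference in response had a median of 0.10 with 0 of 79 at an unadjusted p under 0.05. The 13 mitochondrially encoded genes had medians of -0.39 and -0.46, with 3 in MEC and 5 in LEC at a negative change and an unadjusted p under 0.05 and none called; their sums overlapped in LEC.

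Of 10 endothelial markers 1 was called higher in MEC (0.359% of all genes) and 0 in LEC with edgeR. A positive change at an unadjusted p under 0.05 was found for 4 in MEC and 3 in LEC, beside 7.97% and 4.84% of all genes. The medians were 0.52 in MEC and 0.41 in LEC, with a median difference of 0.07; Ly6c1, a surface protein of brain endothelium, rose in MEC by 1.01 against 0.49 in LEC. Astrocyte markers had medians of -0.05 and -0.16 and microglial markers of -0.04 and -0.43. Choroid plexus markers had a median difference of -1.97, with MEC home cage 2 at 85.2 CPM against 4.81 to 33.9 CPM in the other 11 libraries. Reln, an extracellular protein of superficial entorhinal cells, was at 194, 161 and 124 CPM in LEC home cage and 397, 428 and 355 CPM in LEC fear, with no overlap, and at 134, 262 and 338 and then 422, 239 and 322 CPM in MEC; neither change was called.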
